A study of Mus musculus with 2 samples.

Results

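Introns are the stretches of a primary transcript that are spliced out before the mature RNA leaves the nucleus, and intronic sequence is found in precursor RNA, in retained introns and in transcripts that an annotation does not list. Prrc2a is a large proline-rich protein that binds RNA and is known as a reader of m6A, a methyl mark on adenosine that often lies in a GGAC context. In RIP-seq an antibody to such a protein brings down its bound RNA for sequencing, and a peak is a stretch where the reads pile up over the control. Brain genes are known for long introns and for alternative first and last exons, and annotations of the same mouse genome differ in how many of these exons they list.

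The peaks described here were the shared intronic peaks of Prrc2a in mouse brain. They were chosen by their position and their overlap in the peak lists: a replicate 1 peak was taken if it shared 1 bp or more with a replicate 2 peak and its midpoint lay within a gene of the GENCODE release M21 annotation but in no exon of any gene. The 41 such peaks that covered a start or stop codon of a protein-coding transcript were left out. This gave 658 members among 8372 shared peaks (7.86%) and 18129 peaks of replicate 1 in all. Of the 4856 intronic peaks of replicate 1, 658 (13.6%) were shared, beside 46.2% of all replicate 1 peaks, and since sharing was part of the choice nothing is read from this difference. The tissue was whole brain of wild type C57BL/6J male mice at 4 weeks of age, with no treatment in the labels, and 3 brains are described in the protocol. There was a single group with 2 biological replicates, so no group of animals was compared with another, and the question was where Prrc2a was bound. The lists give a chromosome, a start, an end and a fold enrichment for each peak, which is the linear ratio of the immunoprecipitate over its control, without a strand, a summit, a read count or a p-value. The control library of this call is not given in the sources used here, and the depth is unknown, so a stretch with no peak cannot be told apart from one with too few reads. All positions are in mm10 (GRCm38).

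Peaks were assigned to the whole brain by label only. Of the marker genes checked for an exonic peak in both replicates, Slc1a2 of 5 astrocyte genes, Mbp and Olig2 of 10 genes of oligodendrocytes and their precursors, and Csf1r and Tmem119 of 5 microglial genes had one, and none of 5 neuronal, 4 endothelial, 5 pituitary or 3 liver genes did. A peak is an enrichment and not a level of expression, so these counts do not measure which cells the tissue held.

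An intronic midpoint did not always mean an intronic peak, and the label of the set holds in part only. With the GENCODE annotation, 369 members (56.1%, 95% Wilson interval 52.3 to 59.8%) touched no exon base, while the other 289 (43.9%) reached into an exon. The RefSeq annotation of the same genome lists further exons. Of the 369 members free of GENCODE exons, 143 touched a RefSeq exon and 226 touched no exon in either annotation. These 3 groups, called exon-touching, RefSeq-exon and exon-free peaks below, are described separately. The overlapping replicate 2 peak had its midpoint in an intron for 77.7% of the members. Since overlap was required, this position is tied to the choice of members and is no independent reading of it. For exon-touching peaks the share was 50.5%, and in 39.4% the replicate 2 midpoint lay in coding sequence (CDS). The other groups touched no GENCODE exon. Their midpoints lay a median of 3366 bp (RefSeq-exon) and 4257 bp (exon-free) from the nearest GENCODE exon of the host gene. The overlap rule left little room for another outcome there, and the shares were 100% for RefSeq-exon and 98.2% for exon-free peaks.

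The richest host gene was Snhg14, the long non-coding host transcript of imprinted small nucleolar RNA clusters on chromosome 7, with 15 members. In RefSeq this gene has an exon of 147 bases that recurs in 59 copies, a median of 2530 bp apart. A member lay over 10 of these copies, and the 5 with the strongest peaks are shown because they are near repeats of each other. They were read from the RefSeq genome GRCm38.p6 on the strand of the gene, 5′ to 3′. The first line gives the most common form, which 14 copies share and which had no peak in either replicate, and capitals in the other lines mark the bases that differ from it.
Snhg14 most common form, chr7:59867138-59867284, minus strand: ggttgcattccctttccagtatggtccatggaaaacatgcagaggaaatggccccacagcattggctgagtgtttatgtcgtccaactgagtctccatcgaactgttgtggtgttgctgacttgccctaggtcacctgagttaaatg
Snhg14 copy 16, chr7:59864590-59864736, minus strand: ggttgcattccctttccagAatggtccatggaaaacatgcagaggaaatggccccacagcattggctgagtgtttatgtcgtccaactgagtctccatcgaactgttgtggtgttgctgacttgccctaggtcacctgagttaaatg
Snhg14 copy 38, chr7:59744262-59744408, minus strand: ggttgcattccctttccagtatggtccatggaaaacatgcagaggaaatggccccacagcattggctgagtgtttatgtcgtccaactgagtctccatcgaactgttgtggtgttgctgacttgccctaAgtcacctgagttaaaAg
Snhg14 copy 11, chr7:59877283-59877429, minus strand: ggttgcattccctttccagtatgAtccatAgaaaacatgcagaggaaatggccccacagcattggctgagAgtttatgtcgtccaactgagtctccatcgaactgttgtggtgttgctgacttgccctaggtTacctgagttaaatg
Snhg14 copy 4, chr7:59894970-59895116, minus strand: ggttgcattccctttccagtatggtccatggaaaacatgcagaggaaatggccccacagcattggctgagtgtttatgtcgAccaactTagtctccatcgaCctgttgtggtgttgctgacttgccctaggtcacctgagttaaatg
Snhg14 copy 36, chr7:59751839-59751985, minus strand: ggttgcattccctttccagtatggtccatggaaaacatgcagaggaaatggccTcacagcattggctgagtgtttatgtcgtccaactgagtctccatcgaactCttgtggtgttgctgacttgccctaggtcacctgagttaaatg
The 10 copies under members were between 93.9% and 99.3% identical to each other (median 96.6%, 45 pairs), and no pair was identical. They differed from the most common form at 1 to 5 bases. None of the 10 held GGAC, and of all 59 copies only copy 47 did.

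Other members are shown by single windows. Sequences from the middle of the shared stretch are shown for Ntrk2, Atxn1 and Myt1l, which are among the strongest members free of GENCODE exons once mostly repeat-masked stretches and RefSeq exons of protein-coding genes were passed over. Sequences of the 200 bp around the midpoint are shown for Tiam1, Nfasc, Hivep3 and Elk3, which held the most GGAC under the same conditions. Capitals mark GGAC on the strand of the host gene.
Ntrk2, chr13:58823237-58823386, plus strand: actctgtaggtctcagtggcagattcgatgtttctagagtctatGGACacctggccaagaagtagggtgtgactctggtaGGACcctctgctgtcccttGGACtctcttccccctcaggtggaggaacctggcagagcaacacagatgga
Atxn1, chr13:45952927-45953076, minus strand: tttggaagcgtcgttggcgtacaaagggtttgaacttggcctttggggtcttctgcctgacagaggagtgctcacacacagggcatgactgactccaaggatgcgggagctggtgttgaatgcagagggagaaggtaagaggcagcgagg
Myt1l, chr12:29867182-29867331, plus strand: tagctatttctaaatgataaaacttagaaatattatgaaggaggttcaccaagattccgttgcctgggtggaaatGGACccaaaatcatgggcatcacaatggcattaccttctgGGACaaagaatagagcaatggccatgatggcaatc
Tiam1, chr16:90063842-90064041, minus strand: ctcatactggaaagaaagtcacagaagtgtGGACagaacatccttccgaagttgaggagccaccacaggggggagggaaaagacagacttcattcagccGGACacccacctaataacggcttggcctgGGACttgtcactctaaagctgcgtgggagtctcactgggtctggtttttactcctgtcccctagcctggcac
Nfasc, chr1:132725474-132725673, minus strand: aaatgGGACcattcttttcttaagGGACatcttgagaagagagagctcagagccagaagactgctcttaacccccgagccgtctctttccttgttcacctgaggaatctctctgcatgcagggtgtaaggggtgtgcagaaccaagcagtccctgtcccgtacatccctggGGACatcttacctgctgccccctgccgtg
Hivep3, chr4:119875766-119875965, plus strand: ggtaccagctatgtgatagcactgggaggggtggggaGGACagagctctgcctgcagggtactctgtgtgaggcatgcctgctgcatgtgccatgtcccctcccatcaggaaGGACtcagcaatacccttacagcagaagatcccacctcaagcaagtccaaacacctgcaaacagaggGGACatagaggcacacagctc
Elk3, chr10:93267537-93267736, minus strand: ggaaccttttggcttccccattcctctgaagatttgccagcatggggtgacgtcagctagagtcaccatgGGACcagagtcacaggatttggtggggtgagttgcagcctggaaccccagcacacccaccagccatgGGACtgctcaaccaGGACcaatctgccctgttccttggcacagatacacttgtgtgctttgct
Ntrk2 encodes TrkB, the receptor of brain-derived neurotrophic factor. Its peak lay in intron 4 of 22, counted over the gaps between the merged exons of all transcripts, 12515 bp from the nearest exon, and its fold enrichment was 6.29 and 7.52 in replicates 1 and 2. Paired values below follow this order. The printed stretch holds 3 GGAC. Atxn1 encodes ataxin-1, and its peak in intron 2 of 8 held no GGAC in the printed stretch. Its fold enrichments were 17.95 and 2.55, so the replicates stood far apart on this peak. Myt1l, a zinc finger transcription factor of neurons, had values of 7.42 and 5.62 in intron 22 of 29, 9558 bp from an exon. Tiam1, an activator of the GTPase Rac, had 3.48 and 4.76. Nfasc, which encodes the adhesion protein neurofascin of the axon initial segment and the node of Ranvier, had 3.57 and 4.18. Hivep3, a large zinc finger protein, had 3.39 and 3.22, and Elk3, an ETS family transcription factor, had 3.02 and 3.51. Each of these last 4 windows held 3 GGAC, and their replicate values lay closer together than those of Atxn1.

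Over all members, fold enrichment ran from 1.31 to 17.95 in replicate 1 (median 3.26) and from 1.49 to 19.7 in replicate 2 (median 3.55). The median log2 ratio of replicate 1 to replicate 2 was -0.09, with an SD over peaks of 0.59, and the Spearman correlation of the fold enrichments was 0.50 across 658 peaks, which are not independent replicates. Both replicates reached a fold enrichment of at least 4 in 127 members (19.3%), beside 8.62% of all 8372 shared peaks. By group, this was 41 of 289 exon-touching peaks (14.2%, 95% Wilson interval 10.6 to 18.7%), 23 of 143 RefSeq-exon peaks (16.1%, 10.96 to 23.0%) and 63 of 226 exon-free peaks (27.9%, 22.4 to 34.1%). The median fold enrichment was 3.02 in replicate 1 and 3.26 in replicate 2 for exon-touching peaks, 2.998 and 3.36 for RefSeq-exon peaks, and 3.69 and 4.01 for exon-free peaks. Shared CDS peaks had medians of 2.30 and 2.79, shared 3′ UTR peaks 1.999 and 2.65, and intronic peaks found only in replicate 1 had 4.16. Because peaks were chosen on the same enrichment, these values carry no test. A high ratio can also rest on few reads. One sign of this is a fold enrichment to the last digit that 10 or more peaks of the list share, which occurred in replicate 1 for 9.69% of exon-touching, 16.1% of RefSeq-exon and 31.9% of exon-free peaks, for 5.96% of all shared peaks and for 63.5% of intronic peaks found only in replicate 1. Its part in the higher medians was not tested. Members were 200 to 12559 bp wide (median 364 bp), and the median width was 285, 423 and 378 bp in the 3 groups.

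**Figure D1:**
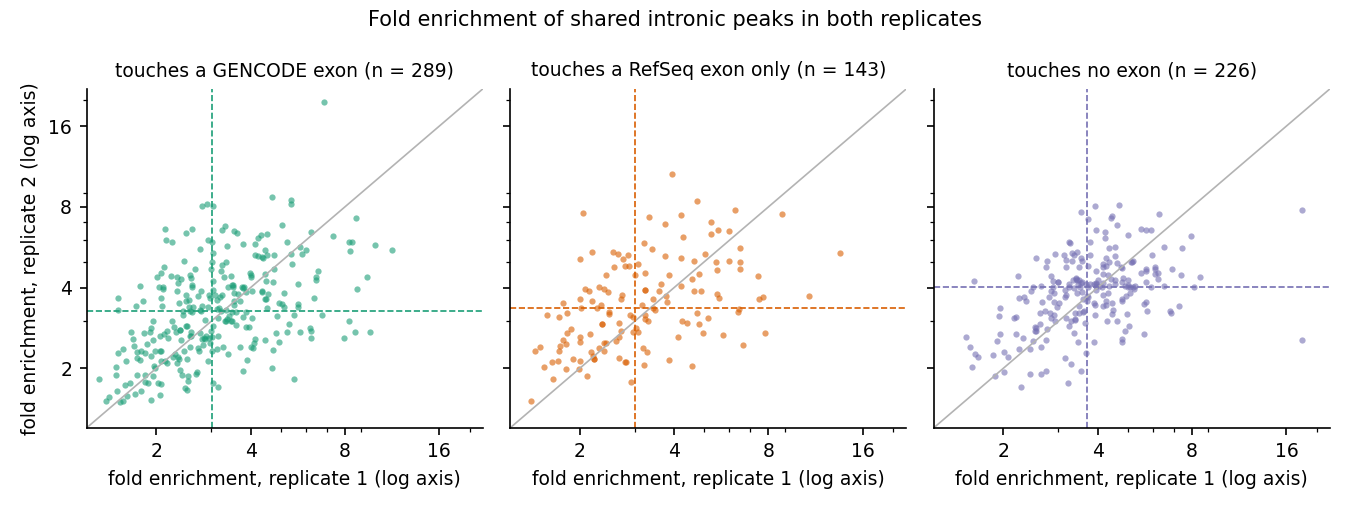
Fold enrichment of each shared intronic peak in replicate 1 (x axis) and in the overlapping peak of replicate 2 (y axis), both on log axes, for the 289 exon-touching, 143 RefSeq-exon and 226 exon-free peaks. Each point is a peak, dashed lines are medians and the grey line marks equal values. The points scatter on both sides of the line in each panel, and the medians of exon-free peaks (3.69 and 4.01) are the highest.

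The 10 members with the highest mean log2 fold enrichment were a mixed set, with 6 exon-touching, 2 RefSeq-exon and 2 exon-free peaks. The highest was an exon-free peak in the last intron of the antisense gene 4732471J01Rik on chromosome 7, with 17.95 and 7.80. A second peak of this gene had 7.92 and 6.24. All 4 of its members lay in the same intron, and the 200 bp around each midpoint were repeat-masked throughout. A930015D03Rik followed with 6.87 and 19.7 over a peak of 10667 bp that touched 35 exon bases. The Snhg14 copy 16 peak had 13.5 and 5.39, and Ldlrad4, which encodes an inhibitor of TGF-beta signalling, had 8.82 and 7.52. Exon-touching peaks of Zbtb41 (8.65 and 7.28), the actin nucleator Fmn1 (11.3 and 5.52), the microfibril protein fibrillin-2 gene Fbn2 (9.99 and 5.77), Nhsl1 (8.43 and 5.93) and the non-muscle myosin gene Myh14 (8.24 and 5.93) made up the rest. In 9 of these 10, replicate 1 was the higher of the replicates, and A930015D03Rik was the exception. The 3 weakest members were in Srgap3 (1.41 and 1.57), Ldlrad4 (1.40 and 1.52) and Sez6l (1.38 and 1.51), all of them below the median of either replicate.

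Where the members lay relative to exons differed between the groups by construction in part. The midpoint of an exon-touching peak was a median of 56 bp from the nearest exon of its host gene, and 74.4% lay within 100 bp. The median distance was 3366 bp for RefSeq-exon peaks and 4257 bp for exon-free peaks, none of which could lie within 100 bp because the narrowest peak was 200 bp wide. Within 1000 bp of an exon lay 27.3% of RefSeq-exon and 23.9% of exon-free peaks, beside 25.3% of all intronic bases of protein-coding genes. Within 5000 bp these shares were 57.3%, 53.1% and 53.9%. The first intron held 16.3% of exon-touching, 23.1% of RefSeq-exon and 32.7% of exon-free peaks (95% Wilson interval of the last 27.0 to 39.1%), beside 19.0% of intronic bases. The last intron held 6.92%, 16.8% and 18.6% (14.1 to 24.2%), beside 7.60% of intronic bases. The intronic bases are those of protein-coding genes, while the peaks include those in other types of host gene (579 of 658 members had a protein-coding host). An only intron counted as both first and last. Peaks of 1 gene are not independent of each other, and these shares were not tested.

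**Figure D2:**
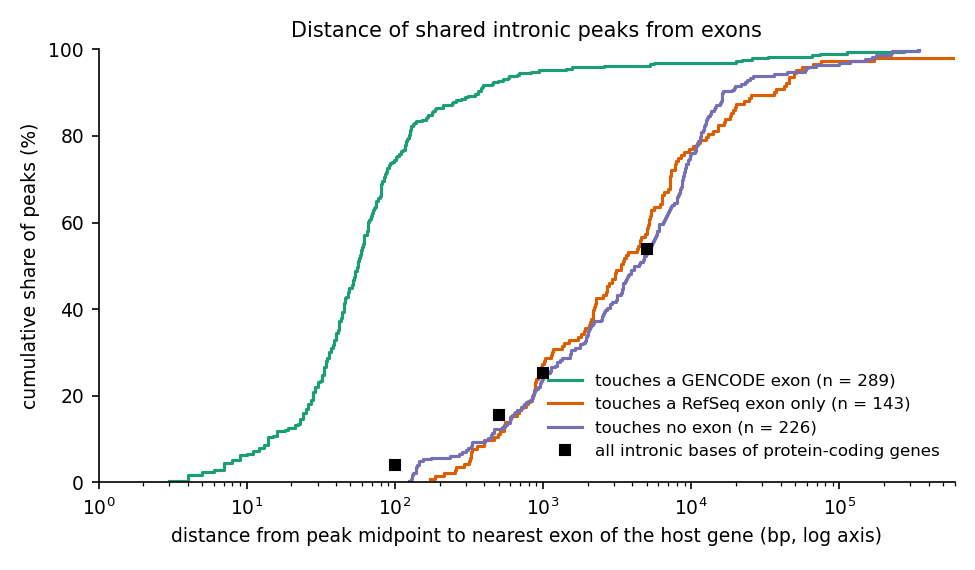
Cumulative share of shared intronic peaks (y axis, %) by distance from the peak midpoint to the nearest GENCODE exon of the host gene (x axis, bp, log axis) for the 3 groups. Black squares give the share of all intronic bases of protein-coding genes within 100, 500, 1000 and 5000 bp of an exon. The curve of exon-touching peaks rises before 100 bp, and the other curves pass near the squares at 1000 and 5000 bp.

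The 658 members lay in 519 introns of 429 host genes, of which 306 hosted a single member and 52 hosted 3 or more. In 34 introns there were 3 or more members, and these introns held 130 of the 658. The host was protein-coding for 579 members, a processed transcript for 28, a long intergenic RNA for 26 and an antisense gene for 21. Host genes were long, with a median span of 116524 bp beside 17403 bp for all protein-coding genes. An exonic shared peak was also present in 73.2% of the protein-coding host genes, beside 11.6% of all protein-coding genes, and this share was 86.8% for the hosts of exon-touching peaks, 65.9% for those of RefSeq-exon peaks and 54.2% for those of exon-free peaks. The part of gene length and of expression in brain in these shares was not tested. At 4.41% of midpoints genes lay on both strands, where the lists cannot say which one was bound.

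Of the 15 members of Snhg14, 10 were RefSeq-exon, 3 exon-touching and 2 exon-free peaks. Their values ran from 2.34 to 13.5 in replicate 1 and from 1.91 to 7.80 in replicate 2. The 10 members over the repeated exon had medians of 5.87 and 4.10. An eleventh lay over a RefSeq exon of 146 bases (2.34 and 3.45). The strongest was over copy 16 (13.5 and 5.39), followed by copy 38 (6.23 and 7.80), copy 11 (10.8 and 3.73), copy 4 (6.00 and 5.02) and copy 36 (7.71 and 3.68). The weakest was over copy 50 (2.69 and 1.91), where GENCODE also lists exon bases. Replicate 1 was the higher for copies 16, 11, 4, 36 and 50, and replicate 2 for copy 38. Of the 59 copies, 19 lay under a replicate 1 peak, 12 under a replicate 2 peak and 11 under both. All 36 copies with a twin of identical sequence elsewhere in the gene lacked a peak in either replicate. Of the 23 copies unlike every other copy, 20 had a peak in at least 1 replicate. The methods state that reads were kept only when they mapped uniquely, and the part of that filter in the pattern was not tested. The peak list therefore cannot say how many of the 59 copies were bound.

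**Figure D3:**
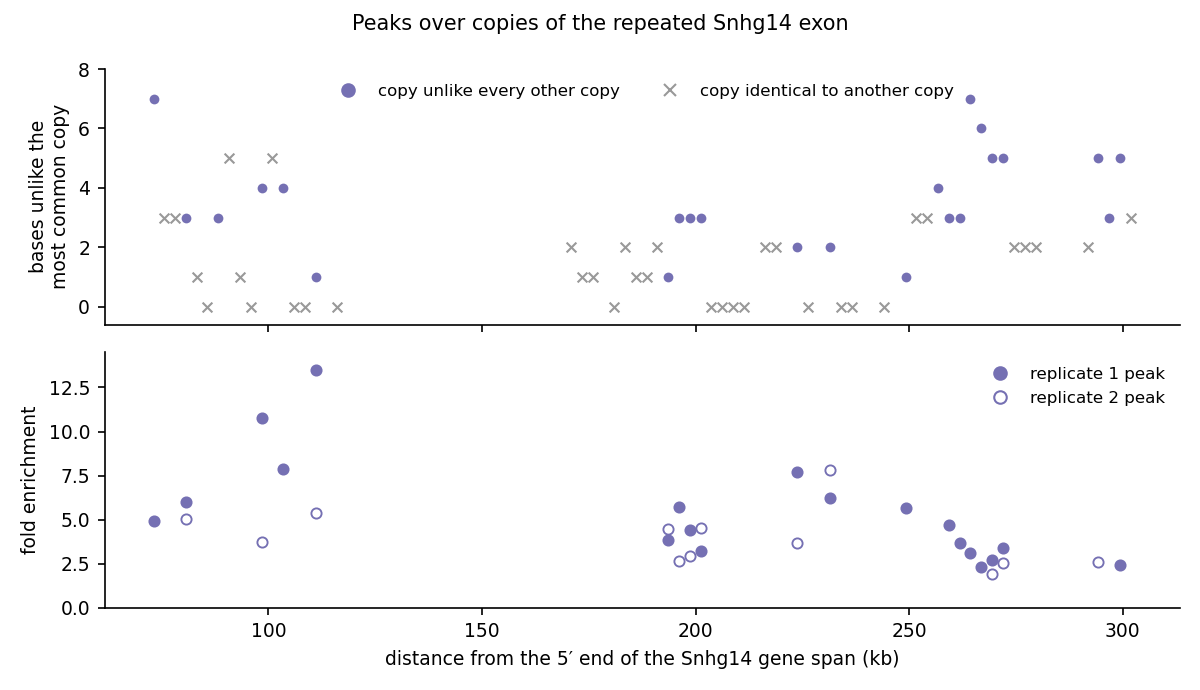
The 59 copies of the repeated Snhg14 exon by distance from the 5′ end of the gene span (x axis, kb). The upper panel gives the number of bases by which a copy differs from the most common form, and the lower panel the fold enrichment of the peaks over it, filled for replicate 1 and open for replicate 2. Circles are the 23 copies unlike every other copy and crosses the 36 copies with an identical twin, and no peak lies over a cross.

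Chd9, which encodes a chromodomain helicase, had 9 members, all in intron 2 or intron 5 of 44. The 5 in intron 2 spanned 1934 to 9327 bp each, and their fold enrichments of 7.36, 6.82, 6.45, 6.03 and 4.40 in replicate 1 stood beside 4.44, 3.26, 4.27, 5.52 and 7.25 in replicate 2. The 4 in intron 5 had 4.43, 3.89, 3.43 and 2.90 in replicate 1 and 4.32, 3.51, 3.803 and 3.803 in replicate 2, the last value being that of a single replicate 2 peak under both. The 2 widest peaks of the gene touched exon bases, and the other 7 were exon-free. Ergic1, a protein of the compartment between the endoplasmic reticulum and the Golgi, had 8 members, of which 7 were exon-free. Fold enrichment in replicate 1 ran from 2.80 to 7.27 and in replicate 2 from 2.68 to 4.76, and 4 of the 8 replicate 2 values were the same number, 3.41.

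Pla2g4e, a cytosolic phospholipase A2 gene, had 6 exon-free members within its first intron of 34762 bp. Their values ran from 2.73 to 3.41 in replicate 1 and from 3.09 to 5.06 in replicate 2. The 6 members of 2210408I21Rik were also exon-free and in a single intron, with 2.89 to 5.63 and 3.49 to 4.24. Kcnj6, which encodes the inwardly rectifying potassium channel GIRK2, also had 6 members, which lay in its last GENCODE intron and each touched a RefSeq exon of the same gene. Their fold enrichments were 2.35, 2.56, 2.19, 2.00, 1.82 and 1.88 in replicate 1 and 2.93, 4.77, 3.57, 5.10, 3.20 and 2.80 in replicate 2. Replicate 2 was the higher at each of the 6, and its lowest value lay above the highest of replicate 1.

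Ptger4, the EP4 receptor of prostaglandin E2, had 5 exon-free members in intron 3 of 4, with values from 2.48 to 5.50 and from 2.52 to 7.43. Fgf14, which encodes an intracellular fibroblast growth factor homologue that binds sodium channels, had 5 exon-free members in a first intron of 483607 bp, 148510 to 224594 bp from an exon, with 2.53 to 5.01 and 2.76 to 6.30. Srcap, the ATPase of a chromatin remodelling complex, had 5 members that all touched exons, each in another intron of 95 to 222 bp. Their values ran from 1.51 to 3.39 and from 1.51 to 4.02. Farp1, an exchange factor for small GTPases that act on the cytoskeleton, had 5 members in intron 14 of 27 with 1.31 to 1.85 and 1.82 to 2.56, and replicate 2 was the higher at each.

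**Figure D4:**
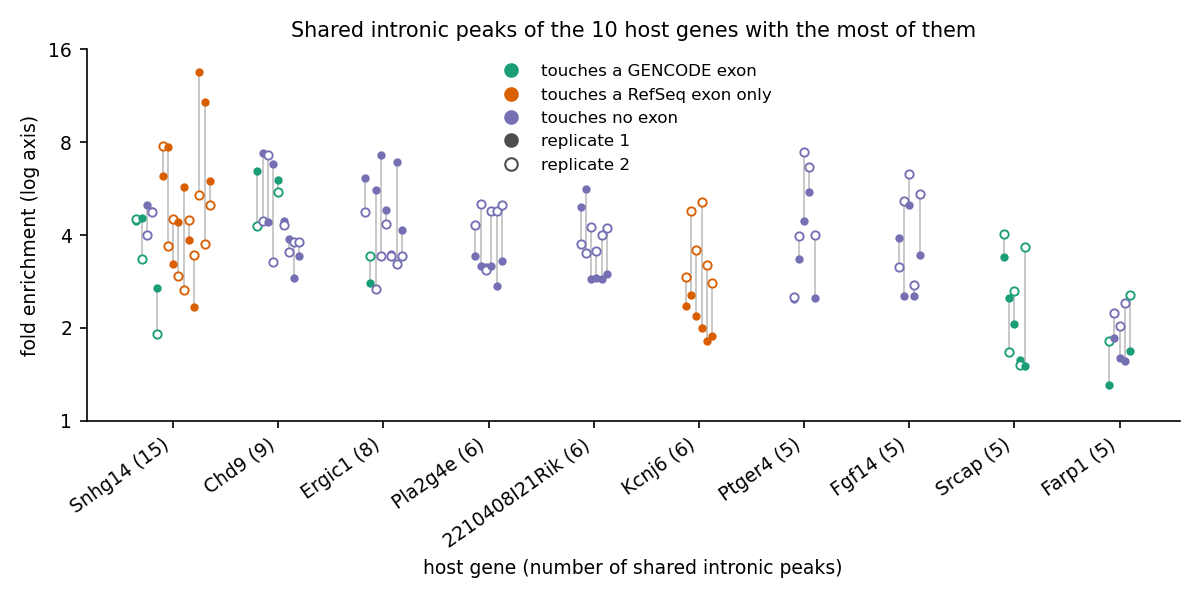
Fold enrichment (y axis, log axis) of each shared intronic peak in the 10 host genes with the most of them (x axis, number of peaks in brackets). A filled and an open circle joined by a line are replicates 1 and 2 of a peak, and colours give its group. The 6 Kcnj6 peaks were all higher in replicate 2, and so were the 5 Farp1 peaks, none of which exceeded 2.56.

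Of the members, 8 were over 5000 bp wide. The widest, 12559 bp in the only intron of Purg, a purine-rich element binding protein gene, was exon-free and overlapped 13 separate replicate 2 peaks that covered 7436 bp of it. The peak of 9131 bp in Pcdh9, a protocadherin gene, overlapped 8 replicate 2 peaks covering 6996 bp. Others were in A930015D03Rik, Chd9, Paqr3 and the imprinted gene Impact, whose peaks of 5968 and 9792 bp overlapped 5 and 9 replicate 2 peaks.

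The RefSeq-exon peaks bear on the annotation. In 107 of these 143 peaks (74.8%) the RefSeq exon belonged to the host gene itself, and 96 of the 143 (67.1%) lay wholly within a single RefSeq exon. The exon was a computational model only in 99 (69.2%) and a curated one in 43 (30.1%). Only 7 had their midpoint in RefSeq coding sequence (4.90%). Ntrk2 had 3 such members beside its exon-free one, with fold enrichments of 3.34, 3.07 and 4.11 in replicate 1 and 7.31, 4.88 and 2.61 in replicate 2. Whether these exons are used in this tissue cannot be read from peak positions.

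Gene lists were compared with all protein-coding genes, of which 1.74% hosted a member. The lists were chosen with earlier results of these data known, so their counts are a description. All protein-coding genes include those not expressed in brain, and the part of gene length and of expression in these counts was not tested. Of 43 genes of synaptic adhesion (median span 579913 bp), 10 hosted a member (23.3%), among them Adgrl3, Cntnap5a, Dscam, Lrrc4c, Nfasc, Nlgn1, Ntm, Opcml and Tenm4. Opcml, a cell adhesion molecule anchored in the membrane of neurons, had an exon-free peak of 6.49 and 4.06 and a second of 3.96 and 4.15. Of 44 postsynaptic scaffold and receptor genes, 9 were hosts (20.5%), among them Dlg2, Dlgap1, Dlgap2, Grik3, Grin2a, Grm7, Shank1 and Shank2. The scaffold gene Dlgap2 had 2 exon-free peaks in intron 3 with 5.96 and 5.31, and with 5.71 and 4.68. The NMDA receptor subunit gene Grin2a had an exon-touching peak of 5.05 and 6.84 and an exon-free one of 3.25 and 2.87. Replicate 1 was the higher at 4 of these 6 peaks of Opcml, Dlgap2 and Grin2a.

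Of 35 genes of voltage-gated ion channels, 6 were hosts (17.1%): Cacna1a, Cacna1c, Cacna1e, Kcnc1, Kcnip4 and Kcnma1. The strongest replicate 2 value was in Kcnip4, an auxiliary subunit of potassium channels, with 3.93 and 8.08 at 69248 bp from an exon. Of 39 genes of axon guidance and cytoskeletal linkers, 11 were hosts (28.2%): Ank2, Dst, Epha7, Ephb1, Macf1, Plec, Plxna2, Plxnd1, Sema6d, Slit2 and Syne2. The guidance ligand Slit2 had exon-touching peaks of 5.02 and 3.47 and of 4.81 and 2.70. Of 40 giant extracellular and adhesion proteins, 9 were hosts (22.5%), and all 22 of their members touched an exon: Csmd1, Csmd2, Csmd3, Dchs1, Fat3, Fbn2, Fras1, Hspg2 and Lrp1b. Hspg2, which encodes the basement membrane proteoglycan perlecan, had 7.34 and 6.22, 4.12 and 5.82, and 5.74 and 2.72. The midpoints of these 22 lay 3 to 117 bp from an exon.

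Chromatin regulators gave 10 hosts of 46 (21.7%), among them Chd9 and Kmt2a, which had members free of GENCODE exons, and Crebbp, Ehmt1, Ep300, Kdm6b, Kmt2c, Kmt2d and Tet1, which had exon-touching ones alone. Kmt2c, a histone H3 lysine methyltransferase, had 5.37 and 8.45 at the stronger of its peaks, and the DNA demethylase Tet1 had 5.75 and 5.69. The splicing regulators gave 2 hosts of 40 (5%), Rbfox1 and Celf2, which had 7 members, none of them touching a GENCODE exon and with no exonic shared peak in either gene. Rbfox1, a neuronal regulator of alternative splicing, had 3.64, 5.03, 4.61 and 2.33 in replicate 1 and 4.13, 2.89, 3.01 and 3.70 in replicate 2. Celf2 had 5.91, 4.77 and 4.77 beside 4.01, 4.18 and 3.64. Replicate 1 was the higher at all 3 Celf2 peaks and at 2 of the 4 Rbfox1 peaks.

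Myelin and oligodendroglial genes gave 4 hosts of 34 (11.8%), Ephb1, Ncald, Nfasc and Slain1, and none of their 8 members touched a GENCODE exon. None of the 4 had an exonic shared peak. Nfasc and Ephb1 and their members were also counted above, under synaptic adhesion and under axon guidance. Ncald, which encodes the neuronal calcium sensor neurocalcin delta, had 4 members in intron 7 of 13 with 3.95, 5.52, 3.23 and 4.63 in replicate 1 and 10.6, 6.55, 5.93 and 3.89 in replicate 2. Replicate 2 was the higher at 3 of them. Slain1, a microtubule plus-end protein, had 6.10 and 4.68, and the ephrin receptor gene Ephb1 had 3.54 and 1.95. Nfasc had, besides the peak printed above, one of 5.13 and 4.97 at 632 bp from an exon. The transcription factors of neural and glial development gave 4 hosts of 49 (8.16%), Foxp1, Myt1l, Nfib and Rora, and Notch and Wnt signalling gave 2 of 38 (5.26%), Notch1 and Notch2, whose 5 members all touched exons. The Notch receptor gene Notch1 had 4.51, 3.03, 2.25 and 2.55 in replicate 1 and 6.32, 5.37, 5.93 and 3.38 in replicate 2, higher in replicate 2 at each peak. Among m6A writers, erasers and readers, Rbm15, a cofactor of the methyltransferase complex, had 3.41 and 3.14 and the demethylase gene Alkbh5 had 1.52 and 3.31, both exon-touching, and these were the only hosts of 22 genes (9.09%). Of 16 long non-coding RNA genes, 4 were hosts (25%): Snhg14, Pantr1 (4.21 and 7.49), Rmst (2.83 and 2.60) and Pvt1 (1.90 and 2.17). The share of protein-coding genes does not apply to this list, and of all 13374 long non-coding RNA genes in GENCODE 48 were hosts (0.359%).

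Sequence features were compared between classes of peaks with 1 peak per host gene, the one with the highest mean log2 fold enrichment. For peaks found only in replicate 1, it was the one with the highest replicate 1 fold enrichment. Members were chosen by an intronic midpoint and not by these features. A difference from CDS or 3′ UTR peaks cannot be told apart from a difference in composition between these regions and introns. Each feature was read in the 200 bp around the midpoint, and Fisher's exact test, two-sided, was adjusted by Benjamini-Hochberg over 9 comparisons. A gene could enter more than 1 class, and the tests treated the classes as independent. GGAC occurred on the host strand in 216 of 429 intronic peaks (50.3%, 95% Wilson interval 45.6 to 55.1%) and in 841 of 1323 shared CDS peaks (63.6%, 60.9 to 66.1%), a difference past the threshold (odds ratio 0.581, Fisher's exact test, adjusted p = 5.18e-06). Against shared 3′ UTR peaks, 49.9% of which held GGAC, the odds ratio was 1.02 (adjusted p = 0.909, Fisher's exact test). Against intronic peaks found only in replicate 1, at 53.4%, it was 0.886 (Fisher's exact test, adjusted p = 0.404). This last direction turned when the motif was sought in the whole peak, with an odds ratio of 1.502 (adjusted p = 0.00329, Fisher's exact test). Over all peaks, members were wider (median 364 bp) than intronic peaks found only in replicate 1 (286 bp). A search of the whole peak covers more bases in a wider peak, and the part of width in this odds ratio was not tested. The odds ratio against 3′ UTR peaks also fell on either side of 1, at 0.790 with a fold enrichment of 4 or more in both replicates and at 1.18 with the peaks of replicate 2 alone, where it passed the threshold (Fisher's exact test, adjusted p = 0.0214). With shared peaks and the 200 bp window, neither of these 2 comparisons passed the threshold, which does not show that the shares were alike.

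Over all 658 members, GGAC occurred in 49.1% on the host strand (45.3 to 52.9%) and in 52.4% on the other strand (48.6 to 56.2%). In 799 intronic windows of the same length placed 2000 bp to either side, the shares were 41.2% (37.8 to 44.6%) and 43.9% (40.5 to 47.4%). Exon-free peaks held it in 52.2% (45.7 to 58.6%) and the windows beside them in 37.6% (31.9 to 43.7%), while RefSeq-exon peaks held it in 44.1% (36.2 to 52.2%) beside 46.7% (39.3 to 54.3%). Counted as single sites, exon-free peak windows held 175 GGAC on the host strand and 177 on the other strand. RefSeq-exon peak windows held 88 and 110, and exon-touching ones 212 and 231, in the same order. These shares and counts were not tested. The windows around the peaks were richer in G and C, with a median of 50.25% beside 44.5% in the flanking windows, and the part of GC content in the motif shares was not tested.

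A GC content of at least 50% was found in 55.5% of the 429 intronic peaks (50.7 to 60.1%), fewer than the 75.6% of CDS peaks (odds ratio 0.402, Fisher's exact test, adjusted p = 4.01e-14) and more than the 46.3% of 3′ UTR peaks (odds ratio 1.45, adjusted p = 0.00241). With members that touched no GENCODE exon alone, the second odds ratio was 1.30 and did not pass the threshold (Fisher's exact test, adjusted p = 0.158). Against the 49.7% of intronic peaks found only in replicate 1 the odds ratio was 1.26 (adjusted p = 0.0867, Fisher's exact test). It passed the threshold with the whole peak (odds ratio 1.38), with every peak (2.04) and with 50% overlap (1.45). With every peak, peaks of 1 gene counted as independent, which they are not. With 50% overlap, the comparison class also held peaks with a smaller overlap. Repeat-masked sequence filled at least 50% of the window in 7.93% of intronic peaks (5.73 to 10.9%), more than in CDS peaks (0.454%, odds ratio 18.9, Fisher's exact test, adjusted p = 4.56e-15) and in 3′ UTR peaks (3.32%, odds ratio 2.51, adjusted p = 0.000726). The share of 9.31% in intronic peaks found only in replicate 1 gave an odds ratio of 0.839 (adjusted p = 0.524, Fisher's exact test). With a fold enrichment of 4 or more this direction turned (odds ratio 2.20, adjusted p = 0.0300, Fisher's exact test), and the differences from 3′ UTR peaks in masked sequence (odds ratio 2.63, adjusted p = 0.342) and in GC content (odds ratio 1.36, adjusted p = 0.586) no longer passed by Fisher's exact test. By group, 3.11% of exon-touching, 6.29% of RefSeq-exon and 20.4% of exon-free members were masked to this degree, beside 23.3% of the flanking windows. The differences from CDS and 3′ UTR peaks in GC content and masked sequence cannot be told apart from the composition of the regions.

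**Figure D5:**
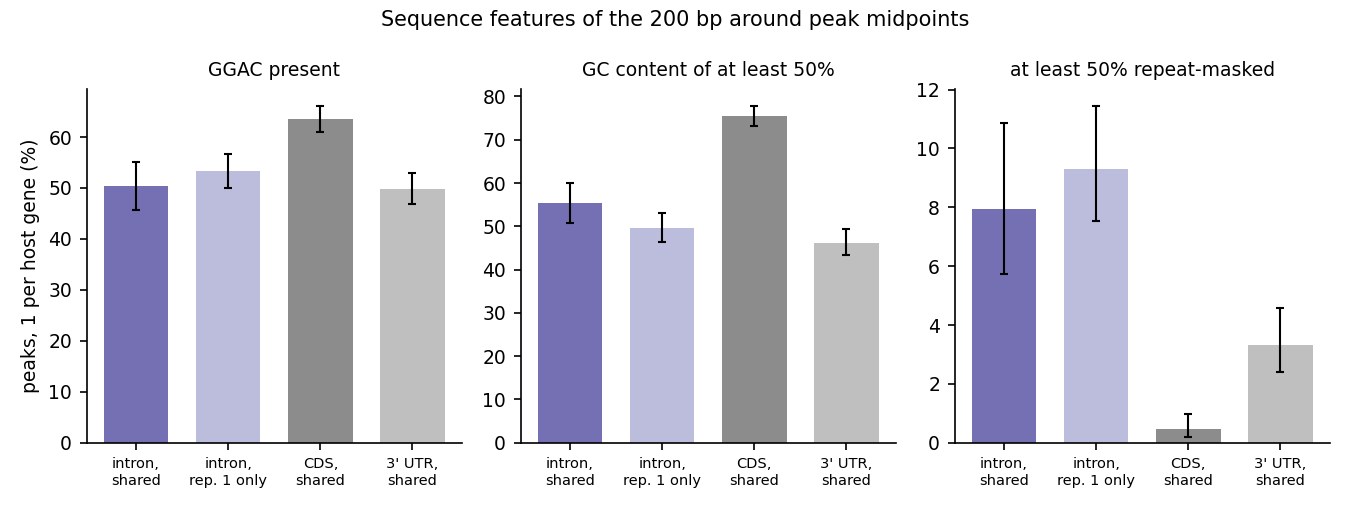
Share of peaks (y axis, %, 1 peak per host gene) that held GGAC on the host strand, had a GC content of at least 50% or were repeat-masked over at least 50% of the 200 bp around the midpoint. Bars give 429 shared intronic peaks, 849 intronic peaks found only in replicate 1, 1323 shared CDS peaks and 1055 shared 3′ UTR peaks, with 95% Wilson intervals. Intronic bars stand below CDS in GGAC and GC content and above it in masked sequence.

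At the edge of the choice, the members with the smallest overlaps were in Zfp369 (3 bp), Crtac1 (16 bp) and Dpp9 (28 bp), with fold enrichments of 2.30 and 2.38, of 4.74 and 3.21, and of 1.63 and 2.103. The intronic peaks that came closest without overlap were in Kirrel3 (2 bp away), Dlgap1 (5 bp) and Ergic1 (8 bp), with replicate 1 values of 3.75, 4.00 and 5.71.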

How the data were processed

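Prrc2a RIP-seq of whole brain was deposited as a peak list for each of 2 replicates. After adapter removal the authors aligned reads to mm10 (TopHat2), dropped reads that mapped to several places or had a mapping quality under 20, and called peaks in either replicate separately (MACS2, FDR under 0.05, no fragment model). The submitters' processing notes name TopHat2 2.0.9 and MACS2 2.0.10, while the methods of the paper name other versions of both. The value the authors deposited for each peak is a fold enrichment, a linear ratio of immunoprecipitate over control. Peak starts and ends were deposited with both ends counted from 1, and the number of reads is unknown.

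From there, peaks were placed on GENCODE M21 and on the RefSeq annotation of GRCm38.p6. A host gene was the protein-coding gene at the midpoint, then a gene with a name other than a Gm or Rik number (chosen after seeing the data), then the shortest. Where a member overlapped several replicate 2 peaks, the one with the largest overlap gave its value. Repeat-masked bases are those in lower case in the RefSeq genome. The scripts used Python 3.11.15, numpy 2.4.6, scipy 1.17.1, pysam 0.24.0, samtools 1.23.1 and matplotlib 3.10.9, and were tested on simulated peaks, where 20 of 20 rounds gave the exact counts. Intervals cover counting error over peaks only. The members and gene lists were chosen with earlier results of these data known.

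The genes named are the 10 members with the highest and the 3 with the lowest mean log2 fold enrichment, the 10 hosts with the most members and every host on a gene list, of which a few are not reported here. The rule for sequences took the 6 strongest members free of GENCODE exons, off chromosome 18, and the 4 with the most GGAC. After the sequences were seen, stretches with at least 50% masked bases and RefSeq exons of protein-coding genes were passed over, and Snhg14 was shown by its repeated exon. Wide peaks, Ntrk2, Atxn1 and the members at the edge of the choice were also named after their values were seen. The alternatives were another overlap, a fold enrichment of at least 4, the replicate 2 midpoint, a single replicate, the region with the most bases, every peak, the whole peak, either strand and members without an exon base.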

Additional observations from a re-analysis of the deposited data

How the results depend on the processing

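The number of members fell to 355 with an overlap of 50% of both peaks and to 127 where both folds reached 4, rose to 1323 when the region with the most bases placed the peak, and was 2244 to 4856 with a single replicate. Their share of shared peaks was 6.70%, 17.6% and 15.8% in the same order, and 12.0 to 26.8% with a single replicate. The share without a GENCODE exon base was 67.7% at a fold of 4, 27.9% by most bases, 60.0% with the replicate 2 midpoint and 59.3 to 86.7% with a single replicate, and host genes numbered 279 (50% overlap), 101 (fold of 4) and 1058 to 1161 (single replicate). The replicate 2 midpoint was intronic for 84.2% (50% overlap), 89.8% (fold of 4) and 98.9% (no exon base), settings chosen after seeing the data.

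For GGAC, the odds ratio against intronic peaks found only in replicate 1 turned to 1.502 with the whole peak (adjusted p = 0.00329, Fisher's exact test), 1.04 with 50% overlap and 1.04 on either strand, and against 3′ UTR peaks to 0.790 at a fold of 4 and 0.967 on either strand, with 1.13 to 1.18 for a single replicate, chosen after seeing the data (adjusted p = 0.0214 for replicate 2 alone). For GC content, the odds ratio against intronic peaks found only in replicate 1 passed the threshold with every peak (2.04), the whole peak (1.38) and 50% overlap (1.45). With every peak, peaks of 1 gene counted as independent, which they are not. The GC odds ratio against 3′ UTR peaks no longer passed at a fold of 4 (1.36) or without exon bases (1.30). For masked sequence, the odds ratio against 3′ UTR peaks was 2.63 at a fold of 4 and no longer passed, and that against intronic peaks found only in replicate 1 turned to 2.20 at a fold of 4 (Fisher's exact test, adjusted p = 0.0300) and 1.07 without exon bases. The whole-peak search for GGAC was not adjusted for the greater median width of members. With 50% overlap, the class named as found only in replicate 1 also held peaks with a smaller overlap (945 host genes beside 849). The causes of these changes were not tested. The 3 comparisons with CDS peaks kept their direction and passed the threshold under all settings run. They cannot be told apart from a difference in composition between introns and coding sequence. There was a single group, so samples could not be paired. Pairing peaks of different classes by gene was not done. Depth is unknown, so a missing peak sets no limit on binding.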
